A study of Drosophila melanogaster with 2 samples.

Results

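The 3′ UTR peaks of the CG8216 binding profile were described here. They were the peaks of the pooled relaxed list whose summit, the position of highest signal, lay in an annotated 3′ untranslated region, in no coding sequence or 5′ UTR, and more than 500 bp from every annotated transcription start site. They numbered 324 of 30000 peaks. Their host 3′ UTRs belonged to 278 of the 11165 genes with any sequence meeting the rule, and 39 of the 324 peaks were also in the stringent list, made by comparing peak ranks between replicates.

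The profile came from chromatin immunoprecipitation and sequencing of whole Drosophila melanogaster prepupae, males and females pooled, from a transgenic line that carries CG8216 (symbol spab) with GFP at its C-terminus. The age label reads 24 days, which is printed as given although prepupae are the stage between larva and pupa. There was 1 group, with 2 biological replicates, both precipitated with an antibody against GFP, and no other genotype, stage or treatment. The labels do not name the promoter that drives the fusion. All tissues of the animal were mixed, so a site used in every cell and a site used strongly in few cells cannot be told apart. The values are peak signals in the caller's own units. The files hold no read counts, so depth is unknown. No list was scaled to the number of reads here, and whether the caller did so is not given.

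A 3′ UTR is the stretch of an mRNA after the stop codon, where RNA-binding proteins and microRNAs act on stability and translation. Chromatin immunoprecipitation reads the DNA of that stretch, not the RNA. DNA-binding regulators are best known from promoters and enhancers, and enhancers of flies often lie in introns or between genes. A summit in a 3′ UTR can therefore belong to a DNA element that has no bearing on the RNA of the gene around it, and host genes are named below as addresses.

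The sequences below are genomic stretches around a short word that earlier results of these data had placed at the summits of strong peaks, CAGTGCA or CAGTGTA, searched on both strands. They are the matches nearest the summit in the 8 strongest 3′ UTR peaks with the word within 100 bp on the arms X, 2L, 3L and 3R. The capitals mark the word, coordinates are dm6, and each sequence is read 5′ to 3′ on the strand that carries the word.
dia, chr2L:20762064-20762092, reverse strand: aaaaatactttCAGTGTAcatagtacatc
GIIIspla2, chrX:8159121-8159149, reverse strand: taccgagtgccCAGTGCAaagtacgacat
CG13689, chr2L:604214-604242, reverse strand: gcgatttcttaCAGTGCActtgcagttgc
Peritrophin-A, chrX:20247936-20247964, reverse strand: aagcagcgaacCAGTGTAaacctaggagg
CG14085, chr3L:19274183-19274211, forward strand: ttcattgtgtaCAGTGTAagaccaattgc
CG1572, chrX:11555190-11555218, reverse strand: attgtgttggcCAGTGTActttgtacttt
Octalpha2R, chr3R:18803127-18803155, reverse strand: cgcattgttttCAGTGTAagcgcacatac
CG10086, chr3R:7793180-7793208, forward strand: ttacggttcgcCAGTGTActtaccaaaat
The dia and GIIIspla2 peaks were in the stringent list, and the other 6 were not. Their words lay 28 bp and 45 bp from the summit. The distance was smallest at CG10086, 6 bp, and largest at Octalpha2R, 95 bp.
The second word, CACTGAG, is shown at the strongest 3′ UTR peak on those same arms that had it within 100 bp, in Hr4. A stronger 3′ UTR peak with this word, in CNBP, lay on another arm and is not shown. Hr4 is a nuclear receptor gene of the ecdysone response.
Hr4, chrX:2005992-2006020, reverse strand: acaggtggcgcCACTGAGgaattttcaag
Its word lay 16 bp from the summit, in a peak of the stringent list. Read on its other strand, CACTGAG ends in the letters CAGTG with which the first word begins, so matches of the words can overlap.

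The strongest 3′ UTR peak lay in Lsd-2, which encodes a perilipin-family protein of the lipid droplet surface. Its summit was at chrX:15069520, inside an interval from 15069263 to 15070095. It lay 2984 bp past the stop codon and 2513 bp from the nearest start site, that of the lipase gene dob. Its signal was 1012 in replicate 1 and 918 in replicate 2 (mean 965 ± 66.5 SD, n = 2) and 1946 in the pooled list, where it ranked 42 of 30000. Both replicates put it far above every other 3′ UTR summit. A second Lsd-2 summit in the same interval had 232 and 244 (mean 238 ± 8.38 SD, n = 2; 542 pooled). The weakest of the Lsd-2 summits had 53.1 and 99.4 (149 pooled) and fell just outside the stringent list. The 3 summits share 1 UTR and are not independent sites.

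Behind Lsd-2 came 4 peaks at similar heights. Ppa, which encodes an F-box protein, a substrate adaptor of a ubiquitin ligase, had 368 in replicate 1 and 395 in replicate 2 (mean 382 ± 19.4 SD, n = 2; 769 pooled). Ance-3, of the angiotensin-converting enzyme family, had 349 and 373 (mean 361 ± 16.995 SD, n = 2; 724 pooled). APC7, a subunit of the anaphase-promoting complex, had 342 and 352 (mean 347 ± 7.18 SD, n = 2; 693 pooled), and its summit stood 577 bp from the start site of pigs. CG7872 had 351 and 323 (mean 337 ± 19.5 SD, n = 2; 674 pooled). Neighbours in this order had overlapping replicate ranges, so their order was not resolved, while each of the 4 lay above the next gene, CG33307.

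The next group held peaks between 445 and 508 in the pooled list. CG33307 had 224 in replicate 1 and 288 in replicate 2, CG33494 had 185 and 275, and by, which encodes the focal adhesion protein tensin, had 201 and 254. CG9107 had 205 and 235. Replicate 2 was higher at all of them, and their ranges overlapped one another. The CG33494 summit lay 35 bp past the stop codon, and the by summit 2190 bp past it.

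The other peaks of the strongest 20 lay between 269 and 389 in the pooled list. The hydrolase gene puml had 156 in replicate 1 and 232 in replicate 2. Agps, whose product makes ether lipids, had 142 and 192, and GIIIspla2, a secreted phospholipase gene, had 120 and 152. Replicate 2 was higher at each of the 3 genes. dia, which encodes a formin that nucleates actin filaments, had 155 and 209. stas, which encodes a membrane protein, had 168 and 192. NetB, encoding a secreted netrin that guides axons, had 165 and 145, and the muscle regulator gene tey had 183 and 163. Replicate 1 was higher only at NetB and tey among these 7. CNBP, a zinc-finger gene, had 110 and 185, the widest ratio among the strongest 20. CG5984 had 131 and 170, and CG14440 had 182 in both replicates. The summits of CNBP and GIIIspla2 lay 630 bp and 874 bp from the nearest start site, and that of NetB 9731 bp.

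**Figure D1:**
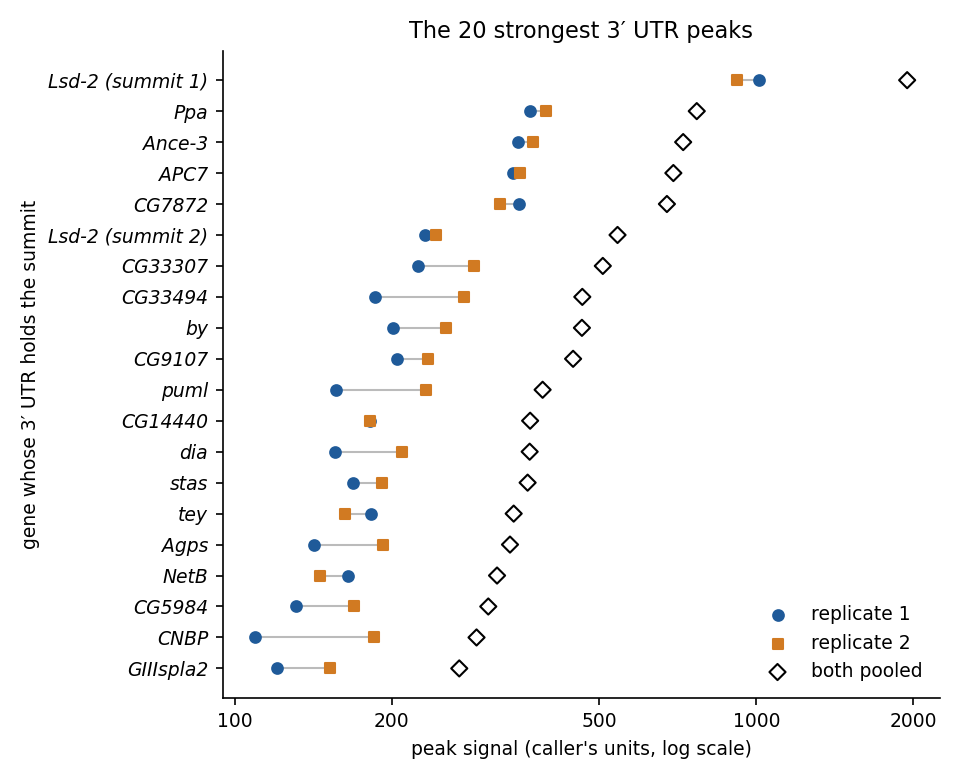
Peak signal (caller's units, log scale) of the 20 strongest 3′ UTR peaks, named by host gene, in replicate 1 (circles), replicate 2 (squares) and the pooled list (open diamonds); grey lines join the replicates. Lsd-2 stands apart with 1012 and 918 in the replicates, and the pooled value lies near the sum of both replicates at most genes.

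The remaining peaks of the stringent list spanned many kinds of genes. Small GTPase genes were represented by Rap1, with 67.6 in replicate 1 and 157 in replicate 2, and by Rac2, with 111 in replicate 1 and no summit within 100 bp in replicate 2. Cell surface and receptor genes were represented by Tollo, a Toll-family receptor gene with 89.995 and 122, and qvr, which encodes a regulator of the Shaker channel, with 95.6 and 102. The innexin gene Inx2, which encodes a gap junction protein, held 2 summits. Myd88, the adaptor of Toll signalling, had 81.0 and 83.7. Adsl, a purine synthesis gene, had 97.6 in replicate 1 and no summit within 100 bp in replicate 2. Kdm5, a histone demethylase gene, had 103 in replicate 2 and no summit within 100 bp in replicate 1. A missing summit does not show missing signal. Pooled values were 187 at Rac2, 186 at Adsl and 154 at Kdm5. A second Rac2 summit, 205 bp away and outside the stringent list, had 76.0 in replicate 2. The other peaks of the stringent list lay in CG4004, dao, CG42445, CG1690, CG14137, CG13284, CG3842, Hr4, mlt and a stretch shared by CG9130 and CG9133.

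Membership of the stringent list ended at a fixed rank. That list, called by the irreproducible discovery rate (IDR), which compares peak ranks between replicates, held exactly the 5944 highest-ranked peaks of the pooled list. Membership is therefore a cut on pooled signal here. The 3′ UTR peaks just inside it were Inx2 at 152, mlt at 153 and Kdm5 at 154. Those just outside it were Lsd-2 at 149, REG at 143.5 and CG12643 at 142.6. Inx2 and Lsd-2, next to each other across the cut, differed by less than either differed between replicates.

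Of the 324 3′ UTR peaks, 39 were in the IDR list, which is 12.04% (exact Clopper-Pearson 95% interval 8.70 to 16.1, counting error over peaks only), beside 19.8% of all pooled peaks. The share was 1.82% among 549 coding peaks, 13.0% among 5′ UTR peaks, 15.03% among intergenic peaks, 19.8% among intron peaks and 28.7% among promoter peaks. The median signal of the 3′ UTR peaks was 53.7 (quartiles 38.5 and 85.8), beside 61.3 (41.5 and 119.6) over all pooled peaks, 54.6 over intergenic peaks and 42.3 over coding peaks. The 3′ UTR set lay above the coding set in both measures, and the 5′ UTR and intergenic shares fell within its interval. Within the IDR list the medians were 269 for 3′ UTR peaks and 278 for all, and outside it 49.2 and 51.7. The weakest 3′ UTR peak, in CG33639, had 32.0.

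Most of the strong 3′ UTR peaks, and fewer of the weak ones, were found in both replicates. A summit within 100 bp was present in both replicate lists for 138 of 324 (42.6%, 37.1 to 48.2), beside 52.6% of all pooled peaks. For those in the IDR list it was 36 of 39 (92.3%), beside 94.6% of all IDR peaks, and for those outside it 102 of 285 (35.8%, 30.2 to 41.7), beside 42.2%. Another 60 had a summit in replicate 1 only, 95 in replicate 2 only and 31 in neither. Across the 138 matched peaks, which share their libraries and their calling, the signals of the replicates had a Spearman rho of 0.764 and a Pearson r of 0.877 on the log2 scale. Over all matched pooled peaks they were 0.837 and 0.902. Over the 102 outside the IDR list the values were 0.469 and 0.463, beside 0.499 and 0.490 over all matched pooled peaks outside it. Replicate 1 over replicate 2 came to a median log2 ratio of −0.23 (SD 0.55), with replicate 1 higher at 50 of 138. Over all pooled peaks the median ratio was −0.19, with replicate 1 higher at 5267 of 15779 matched peaks. The replicate 2 values were thus higher at most peaks, not at all. The pooled signal was a median of 1.01 times the sum of the replicates. Applied to each replicate list alone, the rule found 334 and 363 peaks, of which 36 and 37 were among the 5944 highest-ranked peaks of that replicate's own list.

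**Figure D2:**
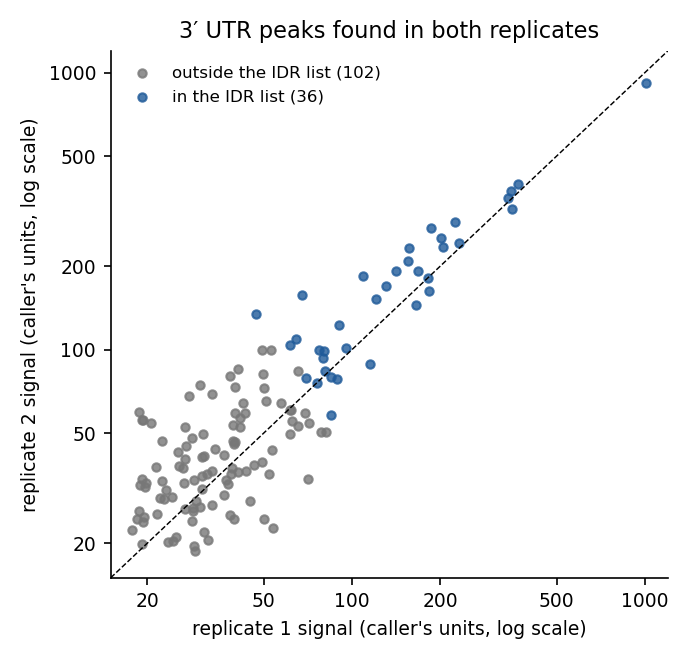
Signal in replicate 2 against replicate 1 (caller's units, log scales) for the 138 3′ UTR peaks with a summit in both, those of the IDR list in blue and the others in grey; the dashed line marks equal values. Most points lie above the line, and the grey cloud, with a Spearman rho of 0.469, is looser than the blue one, with 0.841.

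Sequence that meets the 3′ UTR rule made up 4.43% of the 6 main chromosome arms (5925191 bases), and it held 1.08% of the summits. Observed over expected was 0.244 (0.218 to 0.272). Coding sequence was lower, at 0.133, and introns, at 1.22, and intergenic sequence, at 0.988, were higher. The reference used matters. The expectation was also drawn over exon sequence more than 500 bp from a start site, which includes the coding sequence at 0.133. Against that reference, 3′ UTR summits came to 0.939 of expectation. The share of 3′ UTR summits rose as peaks weakened. The ratio was 0.143 among the 3000 strongest peaks (19 summits) and 0.362 among the 3000 weakest (48 summits), and in the IDR list it was 0.148 (0.106 to 0.202) against 0.268 (0.238 to 0.300) outside it. The coding ratio ran from 0.0097 to 0.330 over the same ranks, so the classes lay far apart among strong peaks and overlapped among the weakest of the pooled list. In each replicate alone the 3′ UTR ratio also rose, from 0.136 to 0.324 in replicate 1 and from 0.158 to 0.309 in replicate 2. The coding ratio among the weakest peaks differed between replicates. It was 0.475 (0.413 to 0.544) in replicate 1, above the 3′ UTR ratio there, and 0.269 (0.222 to 0.323) in replicate 2, where the classes overlapped. Mappability was not part of the expectation.

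**Figure D3:**
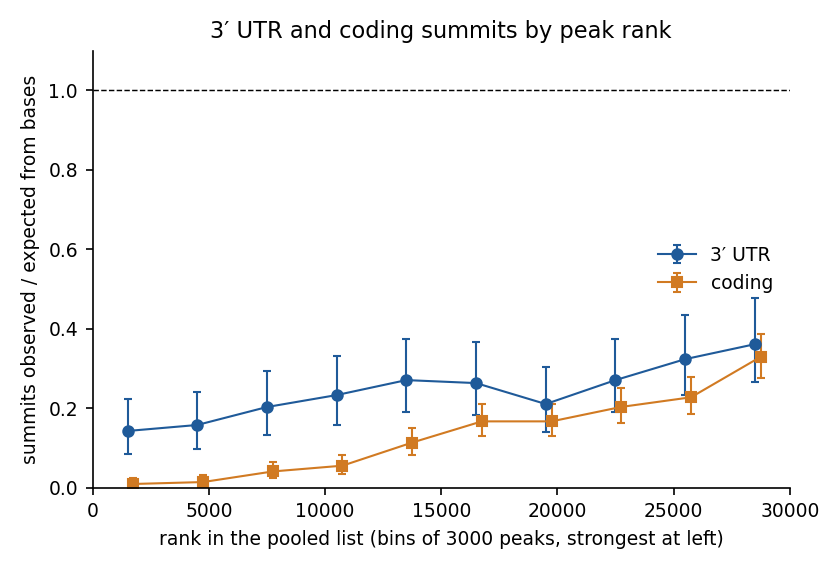
Observed over base-expected summits in bins of 3000 peaks from strongest to weakest, for 3′ UTRs (circles) and coding sequence (squares), with exact 95% intervals of the share; the dashed line marks the expectation over all bases. The 3′ UTR ratio stays between 0.143 and 0.362, and the coding ratio climbs from 0.0097 to 0.330.

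Base composition went with the density of 3′ UTR peaks. The 200 bp around their summits had a median of 39.0% G and C, beside 35% around all bases meeting the rule. There were 21.5 peaks per Mb (exact Poisson 95% interval 14.3 to 31.1) where the window held under 30% G and C, 57.6 (45.6 to 71.8) at 35 to 40%, and 143 (103 to 193) at 50% or more. The classes of composition, and the comparison with introns, were chosen after values had been seen. Intron peaks did not follow the same slope: their density was 268 per Mb under 30% and 264 at 50% or more. In the IDR list, intron density fell from 99.3 to 15.8 per Mb over that range, while the 3′ UTR values were 5.38 (2.17 to 11.1) and 20.4 (7.49 to 44.4). In the most G and C rich class the 3′ UTR and intron densities of IDR peaks overlapped, and in the poorest class they lay far apart.

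**Figure D4:**
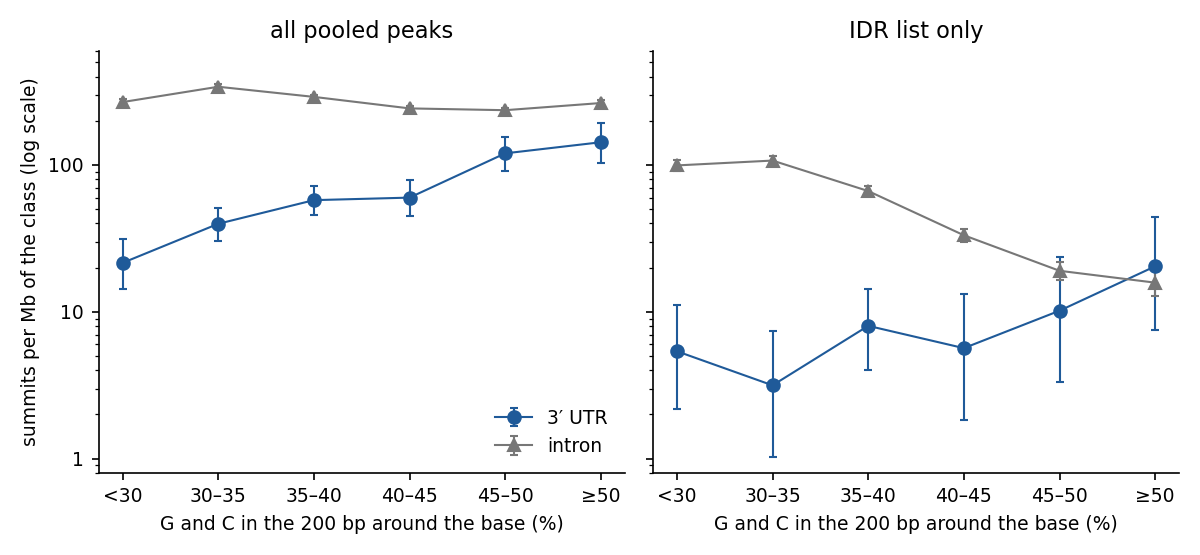
Summits per Mb (log scale) by G and C content of the surrounding 200 bp, for 3′ UTR sequence (circles) and introns (triangles), over all pooled peaks (left) and over the IDR list (right), with exact Poisson 95% intervals. On the left 3′ UTR density climbs from 21.5 to 143 while introns stay between 236 and 341; on the right intron density falls from 107 to 15.8.

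The density was lowest at the start of the UTR. Within 100 bp of the stop codon there were 32.7 peaks per Mb (22.6 to 45.7), and in the 4 more distant classes between 58.3 and 60.8. For IDR peaks the value next to the stop codon was 1.92 per Mb (0.233 to 6.95), resting on 2 summits. With distance from the nearest start site the density went from 70.5 per Mb (54.7 to 89.3) at 501 to 1000 bp to 37.6 (22.3 to 59.4) beyond 10000 bp, where no IDR peak lay. Close to the distance limit, 16 3′ UTR peaks lay 501 to 600 bp from a start site, 3 of them in the IDR list and with a median signal of 72.0. Left out by the rule at 401 to 500 bp were 14 summits, 2 of them in the IDR list, with a median of 58.1. Over the whole range of 0 to 500 bp the rule left out 68 summits in 3′ UTR sequence, 17 of them in the IDR list and with a median of 91.6, above that of the peaks described here.

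Toward the transcript end the density had no single direction, from 61.2 per Mb in the last 100 bp through 46.9 at over 100 to 250 bp to 56.5 beyond 1000 bp. An intron of another transcript overlapped 18.5% of the 3′ UTR peaks and 17.7% of the bases. A gene on the opposite strand overlapped 8.33% of the peaks and 8.43% of the bases. Both shares were close to those of the sequence itself. By arm there were 73 peaks on X, 49 on 2L, 67 on 2R, 57 on 3L and 78 on 3R, and each of these densities had an interval that included the 54.7 per Mb of all 3′ UTR sequence. In the IDR list the counts were 13, 7, 8, 7 and 4, with intervals that included the overall 6.58 per Mb. Chromosome 4 had none in 96839 bases, which allows up to 38.1 pooled peaks per Mb, below the 54.7 over all arms.

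**Figure D5:**
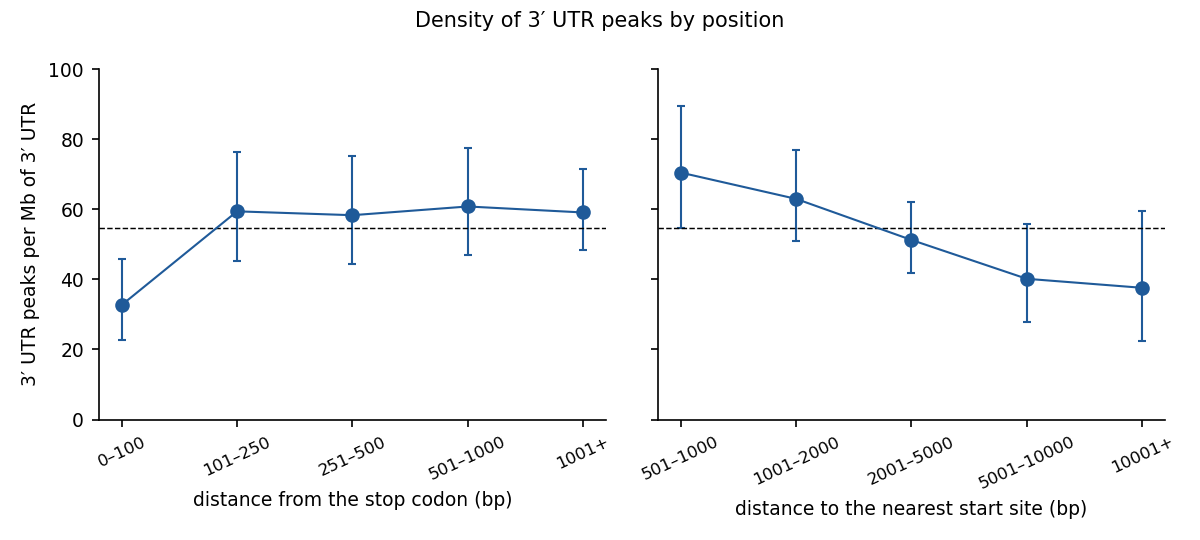
Density of 3′ UTR peaks (per Mb of 3′ UTR sequence meeting the rule) by distance from the stop codon (left) and from the nearest transcription start site (right), with exact Poisson 95% intervals; the dashed line marks 54.7 per Mb over all of it. The first 100 bp after the stop codon stand at 32.7, and the values on the right run from 70.5 to 37.6.

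Peaks were spread over many genes, and long UTRs held more of them. Genes with a 3′ UTR peak had a median of 1142 bp of eligible UTR, beside 222 bp in genes without one. Per Mb the density was 49.1 in UTRs up to 500 bp, 60.5 between 1000 and 2000 bp and 36.3 above 4000 bp. Of the 278 genes, 43 held 2 or more peaks and 4 held 3 or more. corto, which encodes a chromatin protein of the Polycomb and Trithorax groups, held 5 over 6594 bp, none of them in the IDR list. Idgf3, an imaginal disc growth factor gene, and Octalpha2R, an octopamine receptor gene, held 3 each, again outside the IDR list. Lsd-2 held 3, of which 2 were in it. A stronger summit stood within 500 bp of 14.8% of the 3′ UTR peaks (11.1 to 19.2), beside 18.9% of all pooled peaks.

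Each gene list gave between 0 and 2 hosts. Of all genes with eligible UTR, 2.49% held a peak. These shares of genes take no account of UTR length, which differed between lists. The 10 genes of the neuron list had 76513 eligible bp, and the 69 ribosomal protein genes had 19133. In the ecdysone response, the steroid programme that drives metamorphosis, 1 of 33 genes held a peak. That gene was Hr4, with a summit of 75.9 in both replicates (160 pooled, in the IDR list) and a second of 41.3 pooled. Among genes whose 3′ UTRs are known to lengthen in neurons, 1 of 10 held a peak, heca. Its peak had 20.05 in replicate 1 and no summit within 100 bp in replicate 2. RNA-binding and translational control genes had 1 of 20, Rbp6, with summits of 45.2 and 34.9 pooled. Insulin and TOR genes had 1 of 14, the growth regulator Myc, whose summit of 94.1 lay in sequence shared with CG12535. Ribosomal protein genes had 2 of 69, RpS3 with 21.5 and 37.6 in the replicates and RpL17 with 25.7 in replicate 2 only. The Notch list, mainly the receptor, its ligands, its processing enzymes and 3 target genes of the E(spl) bHLH family, had 0 of 15. The list of Dpp and activin ligands, receptors and effectors had 0 of 15, and that of chromatin architectural proteins 0 of 11. These lists are short and do not cover their pathways. Notch target genes that are not on the list did hold 3′ UTR peaks, named here after their values were seen: E(spl)malpha-BFM with 57.3 pooled, E(spl)m6-BFM with 40.7, Ocho with 33.0 and E(spl)m2-BFM with 32.1. The gene of the Dpp antagonist sog held one of 34.1. Each of these 5 summits was found in 1 replicate, and none was in the IDR list. Genes of these pathways that are off the lists and hold no peak were not counted, so these 5 give no share. With so few genes a list, the exact intervals were wide, reaching 15.8% for the ecdysone list and 21.8% for the Notch list.

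The word CAGTGCA or CAGTGTA lay within 100 bp of the summit in 36 of 324 3′ UTR peaks (11.1%, 7.90 to 15.1). Windows of the same size 500 bp to either side of the same summits had it in 32 of 648 (4.94%, 3.40 to 6.90). These flanks were not required to lie in a 3′ UTR. The summits lay a median of 392.5 bp from the transcript end and 537.5 bp from the stop codon. Of 24333 windows of 200 bp cut from all eligible 3′ UTR sequence, 3.59% had it. The share at the summits was thus above those of the flanks and of the cut windows, and near the 11.7% of all pooled peaks. The word was taken from earlier results of these same data, so this excess is a description and not an independent test. In each of the 6 classes of G and C content it was higher at the summits than in the cut windows, from 5.66% against 4.67% at 40 to 45% to 15.9% against 3.38% at 30 to 35%, with wide intervals. CAGTGTA was in 6.79% of the peaks and 1.85% of their flanks, and CAGTGCA in 5.25% and 3.09%. CACTGAG was in 9 of 324 (2.78%, 1.28 to 5.21), beside 0.772% of the flanks, 1.25% of the cut windows and 4.31% of all pooled peaks.

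The share with the word was not resolved between strong and weak 3′ UTR peaks. It was in 3 of 39 3′ UTR peaks of the IDR list (7.69%, 1.62 to 20.9), beside 17.2% of all IDR peaks. Outside the IDR list it was in 33 of 285 (11.6%, 8.11 to 15.9). The interval of the 39 includes both other values. None of the 6 strongest 3′ UTR summits, from Lsd-2 to CG7872, had it within 200 bp.

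In most matches the summit lay on the 5′ side of the word, as the word is read. Within 200 bp there were 75 pairs of a word and a summit, called matches here, at 59 of the 3′ UTR peaks, and the summit was on the 5′ side in 53 of them (70.7%, 59.0 to 80.6). At the 6 IDR peaks with a match it was so in 8 of 8 matches. The median distance over the 53 was 87 bp (quartiles 51 and 123). Matches at 1 peak share their summit and are not independent, and 1 word between the summits of CG6168 was counted for both. The side was not counted over all pooled peaks, so it cannot be called particular to 3′ UTR peaks. The word lay on the strand of the host gene in 42 of 75 matches (56.0%, 44.1 to 67.5), so no strand was resolved.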

How the data were processed

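Per the labels, chromatin of 2 biological replicates was sonicated to 200 to 800 bp, precipitated and sequenced; the 4 dm6 peak lists used are the authors' deposited ones: 1 relaxed list a replicate, 1 from the pooled replicates and 1 IDR list. The peak signal is the deposited value of the authors' caller, used only to rank and describe peaks. Which aligner and peak caller were run, and at what IDR threshold, is not given in the sources used here. Lists on dm3 were not used.

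Summits were placed on Ensembl release 115 gene models (FlyBase 6.54, the dm6 assembly, transposable elements left out) and on RefSeq's genome of the same assembly. Each summit got 1 class, promoter (within 500 bp of a start site) taking precedence, then 5′ UTR, coding sequence, 3′ UTR, remaining exons, introns and intergenic sequence. A pooled peak matched a replicate where a summit lay within 100 bp. Intervals are exact (Clopper-Pearson, or Poisson for densities), at 95%, over peaks, which are not replicates, so no p-value was computed. Python 3.11.15, NumPy 2.4.6, pandas 2.3.3 and SciPy 1.17.1 were used, and the placing of summits was tested on simulated peaks. The peaks, gene lists and words were chosen with earlier results of these data known. Named were the 20 strongest peaks, all IDR hosts, the peaks beside the IDR limit, genes with 3 or more peaks and up to 3 peaks a gene list. With 1 group, no comparison of conditions was possible.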

Additional observations from a re-analysis of the deposited data

How the results depend on the processing

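Of 68 values under another setting, 57 moved by less than the replicate SD, the interval or 1.5 times, and 11 moved by more. Taking only the IDR peaks above that list's median signal left 19 of the 3′ UTR peaks (5.86%). Leaving out 1 replicate gave medians of 25.76 to 31.95 and observed over expected of 0.252 to 0.273. These were read from each replicate's own list, so signal and membership both changed, and the part of each was not tested. Expectation over exons more than 500 bp from a start site gave 0.939, so how far the ratio lay below 1 depended on the reference. The share matched in both replicates was 33.0% within 50 bp, 55.2% within 250 bp and 61.7% by overlapping intervals. The word was in 5.86% within 50 bp and 18.2% within 200 bp of the summit, by the size of the window searched. No paired analysis was possible because there was 1 group. Limits: depth is unknown, control signal was not analysed here, 306 of the 324 intervals have the same 460 bp width, and mappability was not used.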

Other observations

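Other short words were counted in the same 200 bp windows. GAGAG, a core of the GAGA factor motif, was in 15 of the 39 3′ UTR peaks of the IDR list (38.5%, exact 95% interval 23.4 to 55.4). It was in 25.4% of all IDR peaks and 25.1% of all pooled peaks, values inside that interval. It was in 17.9% of the flanks of those peaks (10.2 to 28.3), in 22.8% of the 3′ UTR peaks outside the IDR list and in 19.0% of the windows cut from eligible 3′ UTR sequence. Words known from 3′ UTR function were less frequent at the 3′ UTR summits than in those cut windows. Their shares were above those in the flanks of the same summits, which were not required to lie in a 3′ UTR. The intervals of peaks and flanks overlapped for each of these words, and those of peaks and cut windows for AATAAA only. At the 39 peaks of the IDR list AATAAA (30.8% against 41.0% of their flanks) and TGTANATA (5.13% against 6.41%) went the other way. ATTTA (69.2% against 62.8%) did not. No direction holds for both references. The polyadenylation signal AATAAA was in 38.3% of the peaks, 44.2% of the windows and 34.9% of the flanks. The AU-rich element core ATTTA was in 67.0%, 75.4% and 59.0%, and the Pumilio word TGTANATA in 12.04%, 17.5% and 10.3%. Over all pooled peaks the shares were 40.6%, 62.2% and 8.38%. All were searched on both strands, and the summits lay in sequence richer in G and C (39.0% against 35%), so composition moved with these shares and its part was not tested. In the peaks, the windows and the flanks ATCGAT was in 4.94%, 7.17% and 6.17%, AGATAA in 10.8%, 12.8% and 9.88%, and CACGTG in 1.54%, 1.36% and 2.62%. A match describes the letters only.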
